A study of Homo sapiens with 18 samples.

Results

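tRNA-Phe-GAA is the cytosolic phenylalanine transfer RNA, named after its anticodon. All sites of genes whose name starts with Phe-GAA were taken, which gave 5 of the 725 listed adenosines and 4 of the 180 listed tRNA genes. They were measured by m1A-MAP-seq in small RNA from WPMY-1, a human prostate stromal line of immortalised myofibroblasts. In this assay RNA is pulled down with an antibody against N1-methyladenosine (m1A), the immunoprecipitate is divided in 2, AlkB, an enzyme that removes the m1A methyl group, is added to one portion (AlkB+) and not to the other (AlkB-), and input RNA is sequenced as well. The 18 libraries fell into 6 groups of 3: AlkB+, AlkB- and input of the sh61A line, which carries an shRNA against TRMT61A and is labelled TRMT61A knockdown, and AlkB+, AlkB- and input of the Vector line, labelled TRMT61A wildtype. All groups come from the same parental line, each construct is represented by 1 cell line, and the sources used here do not say whether replicates were separate cultures; the p-values rest on the spread among these libraries, which could be technical only. TRMT61A mRNA and markers of the cell line are not analysed here, so neither the knockdown nor the cell type was checked.

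A transfer RNA carries phenylalanine to the ribosome and pairs through its anticodon GAA with the phenylalanine codons. In the T-loop, near its 3′ end, the adenosine at position 58 is methylated to m1A by the TRMT6/TRMT61A enzyme, in which TRMT61A is the catalytic subunit and TRMT6 the partner that helps bind the tRNA. The methyl group sits on the face that pairs with the incoming nucleotide, so reverse transcriptase tends to stop there or to read a wrong base, and AlkB removes the group. Mammalian tRNA-Phe is also known for m1A at position 14 and for a bulky wybutosine-type base next to the anticodon; position 14 of Phe-GAA is not analysed here.

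The 4 genes are shown whole, 5′ to 3′, since they decide which listed adenosine is position 58; capitals mark the 7 letters of the T-loop, nucleotides 54 to 60 of Phe-GAA-1-3.
Phe-GAA-1-3: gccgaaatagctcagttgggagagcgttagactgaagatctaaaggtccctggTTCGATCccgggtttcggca
Phe-GAA-2-1: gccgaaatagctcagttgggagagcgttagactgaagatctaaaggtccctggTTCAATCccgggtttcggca
Phe-GAA-3-1: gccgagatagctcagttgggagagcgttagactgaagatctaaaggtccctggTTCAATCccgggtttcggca
Phe-GAA-4-1: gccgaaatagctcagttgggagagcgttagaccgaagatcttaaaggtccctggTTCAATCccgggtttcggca

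The sequences are those of the deposited table on hg38, all on the minus strand, and 4 of 4 lay exactly on a RefSeq tRNA gene. Phe-GAA-1-3 (TRF-GAA1-3 in RefSeq) lies at chr11:59557497-59557569 and Phe-GAA-2-1 (TRF-GAA2-1) at chr11:59566380-59566452. Phe-GAA-3-1 (TRF-GAA3-1) lies at chr6:28807833-28807905 and Phe-GAA-4-1 (TRF-GAA4-1) at chr6:28823316-28823389. Phe-GAA-1-3 stands for 6 gene copies in the table's own annotation, whereas each of the other 3 stands for 1, so the copies of Phe-GAA-1-3 cannot be told apart. Counting positions from 1 at the 5′ end of Phe-GAA-1-3 and giving its base first, Phe-GAA-2-1 differs from it by G57A and is identical at 98.6% of positions. Phe-GAA-3-1 differs by A6G and G57A (97.3% identical). Phe-GAA-4-1 differs by T33C, G57A and 1 extra T after position 40 (95.9% identical). The table lists A58 and A73 of Phe-GAA-1-3, A57 of Phe-GAA-2-1 and of Phe-GAA-3-1, and A58 of Phe-GAA-4-1. Because of its extra T, A58 of Phe-GAA-4-1 is the counterpart of nucleotide 57. Position 58 of the mature tRNA, 15 nucleotides before the 3′ end of the gene, was therefore listed for Phe-GAA-1-3 alone; A73 is the last nucleotide of the gene, to which the CCA end is added. The other 3 listed sites are the nucleotide before position 58, at which the genes differ by G57A.

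Reads summed over all listed sites ranged from 115571 to 848566 in AlkB+, 209464 to 890426 in AlkB- and 225291 to 307959 in input libraries. These are sums over listed sites and not the depth of the libraries. In each of 18 pairs of replicates the counts differed beyond counting noise (chi-square over its degrees of freedom, 1.73 to 568). The highest count of any site was 8015 reads, and that of a Phe-GAA site was 3952.

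In input of both lines A58 of Phe-GAA-1-3 had somewhat fewer reads than A73. The ratio of reads at A58 to those at A73 was higher in sh61A than in Vector input, though the difference did not pass the test across tRNAs. Read-through, the number of reads at A58 as a percentage of those at A73, was 93.8%, 97.9% and 96.8% in sh61A input. These values rest on 75 reads at A58 against 80 at A73, 94 against 96 and 92 against 95. Read-through is a ratio of separate counts, and the reads at A58 need not be among those at A73. In Vector input read-through was 87%, 84.6% and 89.4%, from 87 reads against 100, 77 against 91 and 76 against 85. Each sh61A library lay above each Vector library, and the groups did not overlap. The means were 96.2% ± 2.16 in sh61A input and 87.0% ± 2.40 in Vector input (SD, n = 3 each), a difference of 9.16 percentage points. The shortfall of reads at A58, as a share of those at A73, was 3.83% ± 2.16 in sh61A input and 13% ± 2.40 in Vector input (SD, n = 3 each), and thus 3.39 times as high in Vector. Non-overlapping groups were common in this comparison: 27 of 52 tRNAs (51.9%) lay higher in all sh61A input libraries and 0 lay lower in all.

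In limma's fit across tRNAs the log2 change of Phe-GAA-1-3 in read-through, sh61A over Vector input, was 0.14 with a standard error of 0.07, and limma gave an adjusted p of 0.197 over 52 tRNAs (unadjusted 0.0986). In the same fit 16 of 52 tRNAs (30.8%) passed, all of them higher in sh61A, and Phe-GAA-1-3 was not among them. The median log2 change of the other 51 tRNAs was 0.45, and 48 of them had a value above 0. Phe-GAA-1-3 stood at rank 42 of 52 of this change, counted from the highest. Its level of 87.0% in Vector lies 13 percentage points below equal reads at A58 and A73. Leaving out any one library kept the log2 change between 0.12 and 0.16. limma draws the standard error in part from the spread of all tested tRNAs, those with few reads included. With at least 50 3′-end reads in each library, over 39 tRNAs, the standard error was 0.06. limma then gave an unadjusted p of 0.0543 and an adjusted p of 0.106.

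**Figure D1:**
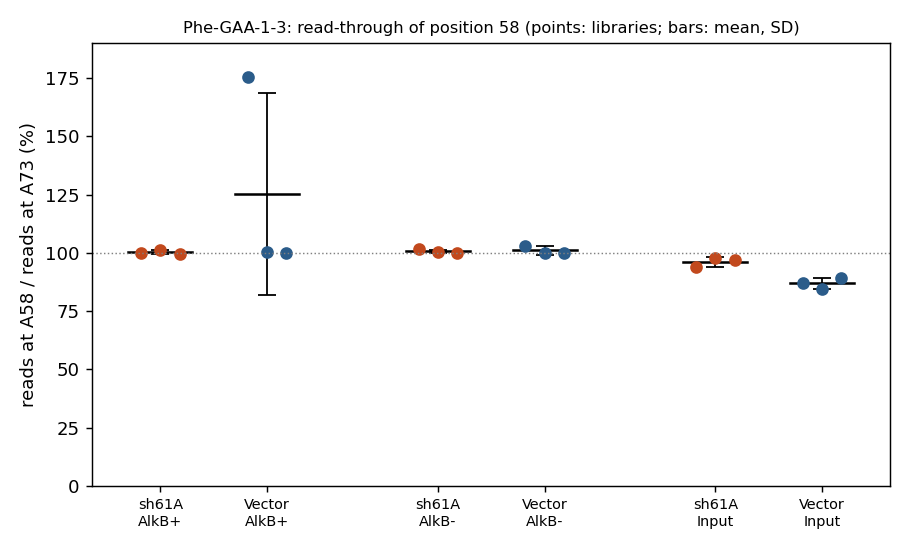
Read-through of position 58 in Phe-GAA-1-3, as reads at A58 over reads at A73 in percent (vertical axis), for the 6 groups; points are libraries, bars the mean and SD of 3 libraries, and the dotted line marks equal reads. The 3 sh61A input libraries (93.8% to 97.9%) lie above the 3 Vector input libraries (84.6% to 89.4%), and the immunoprecipitated libraries lie near 100% except for 1 Vector AlkB+ library at 175%.

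Phe-GAA-1-3 had one of the highest read-through values. In sh61A input it was second of 53 tRNAs that had 20 or more 3′-end reads in every library, where the median of the others was 18.6%. In Vector input it was second of 56, with a median of 13.8% for the others. With reads summed per anticodon, Vector input was ordered as initiator methionine tRNA iMet-CAT with 92.9% (92.1% to 93.7%), Phe-GAA with 87.0% (84.6% to 89.4%), Val-TAC with 82.3% (81.7% to 83.3%) and Ala-CGC with 51.0% (49.2% to 53.2%). The library ranges of these neighbours did not overlap in Vector. In sh61A input the ranges of iMet-CAT (97.2% to 98.8%) and Phe-GAA (93.8% to 97.9%) overlapped, while Val-TAC (86.8% to 89.5%) lay below both.

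The letters of the T-loop alone did not go with this level. The T-loop TTCGATC of Phe-GAA-1-3 was shared by 5 other tested tRNAs, and the T-arms below, stem included, are given to compare 2 of them and iMet-CAT with Phe-GAA-1-3; capitals mark the T-loop.
Phe-GAA-1-3: cctggTTCGATCccggg
Ala-CGC-1-1: ccgggTTCGATCcccgg
Val-CAC-3-1: cccggTTCGATCccggg
iMet-CAT-1-1: gatggATCGAAAccatc

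Ala-CGC-1-1 lies at chr6:26553503-26553574 on the plus strand, Val-CAC-3-1 at chr19:4724635-4724707 on the minus strand and iMet-CAT-1-1 at chr1:153671250-153671321 on the plus strand of hg38. Among the 5 tRNAs with the same T-loop, mean read-through was 68.0% in sh61A and 67.5% in Vector input for Ala-CGC-1-1 and 68.7% in sh61A and 65.8% in Vector input for Ala-TGC-3-2. It was 16.9% and 14.5% for Ala-TGC-6-1, 17.6% and 10.7% for Val-CAC-3-1 and 15.7% and 9.83% for Ala-TGC-1-1, sh61A before Vector in each. Phe-GAA-1-3 thus lay highest of the 6, and the others ranged from 9.83% to 67.5% in Vector input. The base before A58 marked the upper end of the order: the 16 tRNAs with the highest read-through in Vector input, Phe-GAA-1-3 included, all had G there, at 24.2% or more. Several of the 16 are genes with identical T-arms, such as those of Leu-CAA and those of Val-TAC, so they are not independent cases. The limit of 24.2% was read off this same order. The medians were close, with 14.1% for the 36 tRNAs with G (0.167% to 92.9%) and 13.9% for the 16 with A (1.17% to 15.6%). No test was made of these differences.

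**Figure D2:**
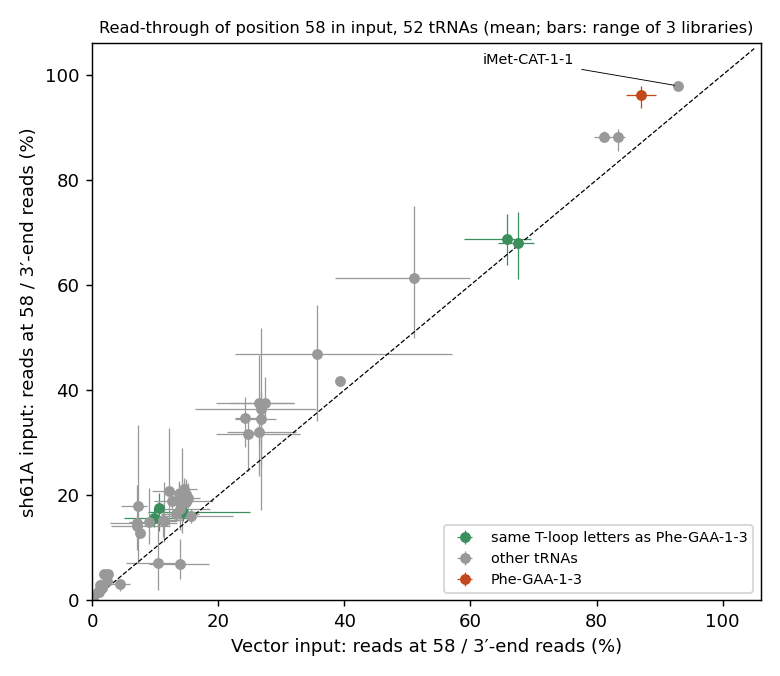
Mean read-through of position 58 in sh61A input (vertical axis, percent) against Vector input (horizontal axis, percent) for 52 tRNAs; bars give the range of 3 libraries and the dashed line marks equal values. Phe-GAA-1-3, at 96.2% in sh61A and 87.0% in Vector, lies near the top right corner beside iMet-CAT-1-1, and the 5 tRNAs with the same T-loop letters are spread from 9.83% to 67.5% in Vector.

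Across the 18 libraries the anticodons whose log2 read-through was most like that of Phe-GAA, among 17 others, were iMet-CAT (Pearson r = 0.57), Ala-TGC (r = 0.50) and Ser-AGA (r = 0.49). These are descriptions, since all anticodons share the libraries and their depth. Over the 6 input libraries r was 0.94 for iMet-CAT, which took rank 2 of 17 after Tyr-GTA with 0.94, but 0.53 for Ala-TGC at rank 14 and 0.68 for Ser-AGA at rank 13. Over the 12 immunoprecipitated libraries it was 0.61 for iMet-CAT, 0.22 for Ala-TGC and 0.13 for Ser-AGA. The sets of 18 and of 12 include Vector AlkB+ replicate 1, in which read-through of Phe-GAA was 175%, against 84.6% to 103% in all others. The weight of that library in r was not tested. Val-TAC, next below Phe-GAA in Vector input, had r = -0.47 over the 18 libraries and 0.91 over the 6 input libraries.

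In 11 of the 12 immunoprecipitated libraries A58 and A73 of Phe-GAA-1-3 had nearly equal numbers of reads. Read-through in AlkB+ was 100.03%, 101% and 99.6% in sh61A, against 175%, 100.3% and 100% in Vector. The value of 175% is Vector AlkB+ replicate 1, in which A58 had 335 reads and A73 had 191. In that library 7 of 57 tRNAs were above 100%. The other AlkB+ libraries ran from 0 of 48 tRNAs in sh61A replicate 3 to 8 of 59 in Vector replicate 3. In AlkB- the read-through of Phe-GAA-1-3 was 101%, 101% and 99.9% in sh61A, against 103%, 99.96% and 100% in Vector. Other tRNAs had median levels from 55.9% to 70.1% in these groups, and Phe-GAA-1-3 stood at rank 2 or 3 of 45 to 54 tRNAs in each of them.

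No difference in read-through of Phe-GAA-1-3 passed limma in the immunoprecipitates. The log2 change, sh61A over Vector, was -0.27 in AlkB+ (SE 0.34, adjusted p = 0.769) and was 0.00 without Vector AlkB+ replicate 1. In AlkB- it was -0.01 (SE 0.16, adjusted p = 0.992). In both comparisons 0 of 44 tRNAs (0%) passed, with 0 and 5 of them at an unadjusted p under 0.05 in AlkB+ and in AlkB-. Between AlkB+ and AlkB- the log2 change was 0.00 in sh61A (SE 0.30, adjusted p = 0.99), where 0 of 39 tRNAs passed and 1 had an unadjusted p under 0.05. In Vector it was 0.26 (SE 0.33, adjusted p = 0.763), where 4 of 45 (8.89%) passed, and it was 0.00 without replicate 1.

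Read-through in AlkB- differed from input in many tRNAs, while the change of Phe-GAA-1-3 did not pass the test. Its log2 change in read-through, AlkB- over input, was 0.07 in sh61A (SE 0.19, limma adjusted p = 0.823) and 0.21 in Vector (SE 0.12, adjusted p = 0.217). In sh61A 20 of 44 tRNAs (45.5%) passed, all higher in AlkB-, with a median log2 change of 1.09 over the other 43. In Vector 24 of 45 (53.3%) passed, also all higher in AlkB-, with a median of 1.78 over the other 44. Phe-GAA-1-3 stood at rank 37 in sh61A and rank 40 in Vector from the highest change. Its input levels were 96.2% in sh61A and 87.0% in Vector. From there, a rise as large as these medians would have meant more reads at A58 than at A73. The bearing of the input level on the ranks of Phe-GAA-1-3 was not tested. Its libraries ranged from 99.9% to 101% in sh61A AlkB- against 93.8% to 97.9% in input. In Vector they ranged from 99.96% to 103% in AlkB- against 84.6% to 89.4% in input.

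Mismatches at A58 of Phe-GAA-1-3 were rare in all groups. In AlkB+ they made up 0.81%, 0.501% and 1.06% of reads in sh61A, from 32 of 3952, 3 of 599 and 3 of 282. In Vector AlkB+ they made up 0.896%, 0.463% and 0.721%, from 3 of 335, 3 of 648 and 6 of 832. All 6 AlkB+ libraries thus held mismatched reads, in overlapping ranges. The difference of 0.0982 percentage points, sh61A minus Vector, did not pass the quasi-binomial model across sites (adjusted p = 0.843).

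The AlkB- portions of the same immunoprecipitates had mismatches at A58 in 1 library of each line. In sh61A AlkB- the counts were 0 of 69, 0 of 184 and 2 of 683 reads. In Vector AlkB- they were 0 of 65, 27 of 2249 and 0 of 61. The 1.20% of Vector replicate 2 thus came from the library with by far the most reads at this site among the Vector AlkB- libraries, and a count of 0 in the others allowed up to 4.62% and 4.92%. The means were 0.0976% ± 0.169 in sh61A and 0.4% ± 0.693 in Vector (SD, n = 3 each), and with reads pooled the shares were 0.214% (95% Wilson interval 0.0586% to 0.776%) in sh61A and 1.14% (0.782% to 1.65%) in Vector. The quasi-binomial model gave an unadjusted p of 0.018 and an adjusted p of 0.418 over 255 sites, of which 0 (0%) passed and 21 (8.24%) had an unadjusted p under 0.05. The difference, sh61A minus Vector, was -0.303 percentage points with all libraries and 0.0976 without Vector replicate 2, and with limma on the logit of the rate its unadjusted p was 0.485.

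In input 1 mismatched read was seen per line at A58. The counts were 0 of 75, 0 of 94 and 1 of 92 in sh61A and 0 of 87, 1 of 77 and 0 of 76 in Vector. A share of 0 allowed up to 4% and 3.19% in sh61A replicates 1 and 2, and up to 3.45% and 3.95% in Vector replicates 1 and 3, so that differences below this size were not detectable at this depth. The pooled shares were 0.383% in sh61A and 0.417% in Vector, and the difference had an adjusted p of 0.994 in the quasi-binomial model, where 2 of 379 sites (0.528%) passed.

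The mean mismatch rate at A58 was higher with AlkB than without it in both lines, but neither difference passed, and in Vector the direction depended on how libraries were weighted. In sh61A the mean rate was 0.791% ± 0.282 in AlkB+ and 0.0976% ± 0.169 in AlkB- (SD, n = 3 each), a difference of 0.694 percentage points, AlkB+ minus AlkB-. Each of the 3 AlkB+ libraries was above each AlkB- library, as at 20 of 249 tested sites (8.03%). However, the counts of 0 in sh61A AlkB- replicates 1 and 2, of 69 and 184 reads, allowed up to 4.35% and 1.63%. Both limits lie above every AlkB+ rate in sh61A, of 0.501% to 1.06%. The quasi-binomial model with replicates as blocks gave an unadjusted p of 0.0452 and an adjusted p of 0.727. Of the 249 sites, 1 (0.402%) passed. In Vector the mean was 0.693% ± 0.218 in AlkB+ and 0.4% ± 0.693 in AlkB- (SD, n = 3 each, adjusted p = 0.835, 0 of 251 sites passed, 8 of them with an unadjusted p under 0.05). The difference in Vector, AlkB+ minus AlkB-, was 0.293 percentage points with all pairs, 0.808 without replicate 2, which held all 27 AlkB- mismatches and left no test, and -0.00821 without replicate 1, and the pooled shares ran the other way, with 0.661% in AlkB+ and 1.14% in AlkB-. In the authors' deposited table, which gives AlkB- minus AlkB+ with negative values set to 0, A58 of Phe-GAA-1-3 had a positive difference only in Vector replicate 2, at 0.738 percentage points and a ratio of 2.59. In the same table the ratio in sh61A replicate 3 was 0.275. Between AlkB- and input the fit with replicate blocks could not test A58, since in either line all mismatched reads lay in 1 pair of libraries. Without the block the quasi-binomial model gave an adjusted p of 0.898 in sh61A, with a difference of -0.265 percentage points, AlkB- minus input, and of 0.586 in Vector, with a difference of -0.0327; limma on the logit of the rate gave 0.764 in sh61A and 0.91 in Vector.

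The rate at A58 of Phe-GAA-1-3 lay within the range of other tRNAs in each group. The median over other position-58 sites covered by 20 or more reads per library was 0.629% in sh61A AlkB+ (60 sites) and 0.621% in Vector AlkB+ (67 sites), and Phe-GAA-1-3 took rank 18 and rank 31 there. In AlkB- the medians were 0.505% over 55 sites in sh61A and 0.671% over 44 in Vector, with Phe-GAA-1-3 at rank 54 and rank 41. In input they were 0.408% over 33 sites in sh61A and 0.52% over 32 in Vector, at rank 19 and rank 20. Among the other position-58 sites tested between the lines, 28 of 57 were higher in sh61A than in Vector in AlkB+, 15 of 44 in AlkB- and 13 of 24 in input; 1 of these sites passed, in input, lower in sh61A. At nucleotides 13 to 15 of other tRNAs, the region of the second m1A of tRNA-Phe, 7 of 26 tested sites were higher in sh61A than in Vector in AlkB+, 9 of 12 in AlkB- and 19 of 40 in input, and 0 passed in any.

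A73, 15 nucleotides from A58 and outside the T-loop, is an adenosine of the same tRNA that is not known to carry m1A. It had few mismatches in every group. It had 3 of 3951, 0 of 591 and 0 of 283 reads in sh61A AlkB+ and 0 of 191, 1 of 646 and 1 of 832 in Vector AlkB+. In AlkB- it had 0 of 68, 0 of 183 and 1 of 684 in sh61A and 0 of 63, 1 of 2250 and 0 of 61 in Vector. In input it had 0 of 271 reads in sh61A, which allows up to 1.11%, and 0 of 276 in Vector, which allows up to 1.09%. With reads pooled, the AlkB+ share was 0.786% at A58 and 0.0622% at A73 in sh61A, and 0.661% at A58 and 0.12% at A73 in Vector. The AlkB- share was 0.214% at A58 and 0.107% at A73 in sh61A, and 1.14% at A58 and 0.0421% at A73 in Vector. Such a gap was not particular to Phe-GAA-1-3. Over other tRNAs, the median rates at position 58 and at a listed last nucleotide were 0.629% and 0.122% in sh61A AlkB+. They were 0.621% and 0.109% in Vector AlkB+, 0.505% and 0.106% in sh61A AlkB-, and 0.671% and 0.0881% in Vector AlkB-. No test was made between the 2 positions, and none of the 4 comparisons in which A73 could be tested passed (adjusted p from 0.609 to 0.874 in the quasi-binomial model).

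**Figure D3:**
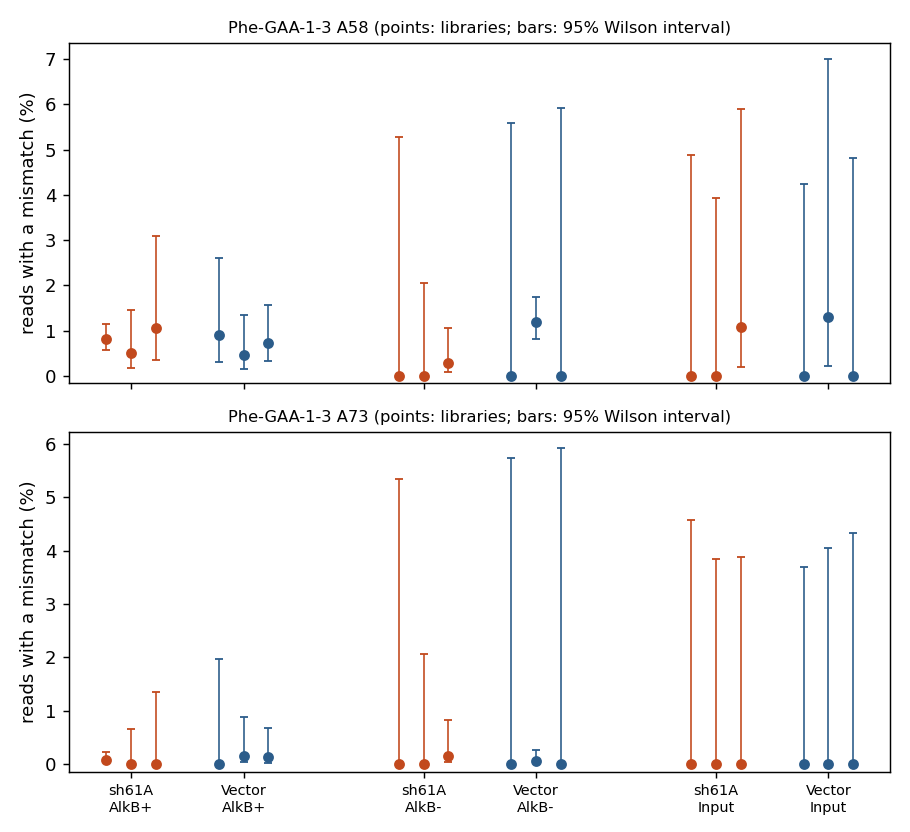
Share of reads with a mismatch (vertical axes, percent) at A58 (upper panel) and A73 (lower panel) of Phe-GAA-1-3 in each of the 18 libraries, with 95% Wilson intervals as bars. A58 is above 0 in all 6 AlkB+ libraries, between 0.463% and 1.06%, and in 1 library of each other group, and the widest bars belong to libraries with at most 100 reads.

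The other 3 Phe-GAA genes were almost absent from the reads. Phe-GAA-4-1 A58 had 7 reads in 6 libraries, Phe-GAA-3-1 A57 had 9 reads in 6 libraries and Phe-GAA-2-1 A57 had 4 reads in 3 libraries, with at most 3 reads in any library. Of these 20 reads 10 were mismatched, which is 50% with a 95% Wilson interval of 29.9% to 70.1%. By group, 5 of 9 reads were mismatched in sh61A AlkB+, 1 of 2 in Vector AlkB+, 1 of 4 in sh61A AlkB-, 3 of 4 in Vector AlkB- and 0 of 1 in sh61A input, while Vector input had no read. At the same nucleotide, 16 before the 3′ end, 35 adenosines of other tRNAs had 1555 mismatches in 178930 reads (0.869%, 0.827% to 0.913%), and single sites with at least 20 reads reached from 0.464% to 4.11%. Where these 3 genes have A, Phe-GAA-1-3, which had far more reads, has G, as shown by G57A; the base that was read at the mismatches is not analysed here, and its part in the rate was not tested. In the authors' deposited table Phe-GAA-4-1 A58 and Phe-GAA-3-1 A57 have a difference of 100 percentage points and a ratio of 1000 in Vector replicate 2, which rest on 2 AlkB- reads and on 1. Neither site had a read in Vector AlkB+ replicate 2, so the difference was not taken against a measured rate. With no library above the minimum of 20 reads, none of the 3 sites was tested.

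The reads at A73 count how often the 3′ end of Phe-GAA-1-3 was sequenced. In sh61A input there were 80, 96 and 95 and in Vector input 100, 91 and 85, so that the raw counts overlapped. Reads at the 3′ ends of all 91 tRNAs with a listed site there were 28414, 30137 and 26388 in sh61A input and 52102, 39516 and 44675 in Vector input. Scaled to the same total of 3′-end reads in each library (RPM), Phe-GAA-1-3 had 2816, 3185 and 3600.1 RPM in sh61A input and 1919, 2303 and 1903 RPM in Vector input, without overlap. The mean share was 1.57 times as high in sh61A input, at 3200.4 ± 393 against 2042 ± 226 RPM in Vector input (SD, n = 3 each). edgeR's quasi-likelihood test gave a log2 change of 0.52 (SE 0.18, adjusted p = 0.0147).

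This was 1 of 27 tRNAs called among 73 (37%), of which 12 were higher (16.4%) and 15 lower (20.5%) in sh61A, and 22 of the 73 (30.1%) lay higher in all sh61A input libraries. The median log2 change of the other 72 was 0.06. The value is a share of tRNA 3′ ends relative to other tRNAs and not an amount per cell; more of this tRNA and less of others cannot be told apart here. DESeq2 gave an adjusted p of 0.0464, but without sh61A input replicate 2 or 3 the edgeR adjusted p was 0.0588 and 0.106.

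Between immunoprecipitates the share of Phe-GAA-1-3 among 3′-end reads varied most in AlkB-. Its share of 3′-end reads was 26228, 10800.0 and 12487 RPM in sh61A AlkB+ and 7374, 16128 and 18645 in Vector AlkB+. In AlkB- it was 463, 6673 and 6980 in sh61A and 566, 18107 and 621 in Vector. The highest AlkB- library was 15.1 times the lowest in sh61A and 32 times in Vector, where the medians of the other tRNAs were 2.32 and 3.87; 10 of 49 tRNAs in sh61A and 2 of 48 in Vector varied more. In AlkB+ this ratio was 2.43 in sh61A and 2.53 in Vector, and in input 1.28 in sh61A and 1.21 in Vector.

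None of the further comparisons of these reads passed edgeR's test. The log2 change, sh61A over Vector, was 0.11 in AlkB+ (SE 0.54, adjusted p = 0.963, 1 of 71 tRNAs passed, 1.41%) and -0.91 in AlkB- (SE 1.66, adjusted p = 0.984, 0 of 68 passed, 2 with an unadjusted p under 0.05). Without Vector AlkB- replicate 2, the value in AlkB- became 2.71. AlkB- over input gave -0.06 in sh61A (SE 1.41, adjusted p = 0.978, 4 of 73 passed, 5.48%) and -0.64 in Vector (SE 1.76, adjusted p = 0.865, 19 of 78 passed, 24.4%). Without the replicate block the values were 0.51 in sh61A and 1.76 in Vector. The mean shares were higher in AlkB- than in input, at 4705 against 3200.4 RPM in sh61A and 6431 against 2042 RPM in Vector. In Vector that mean rests on AlkB- replicate 2, at 18107 RPM. Vector AlkB- replicates 1 and 3, at 566 and 621 RPM, lay below all Vector input libraries (1903 to 2303 RPM). In sh61A, AlkB- replicate 1, at 463 RPM, lay below all input libraries (2816 to 3600.1 RPM), and replicates 2 and 3 lay above them. The 6 AlkB+ libraries lay above all 6 input libraries, as for 16 of 73 tRNAs (21.9%), with the lowest AlkB+ value at 2.05 times the highest input value; the mean was 5.16 times as high in AlkB+ as in input in sh61A and 6.88 times in Vector. AlkB+ was not tested against input.

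**Figure D4:**
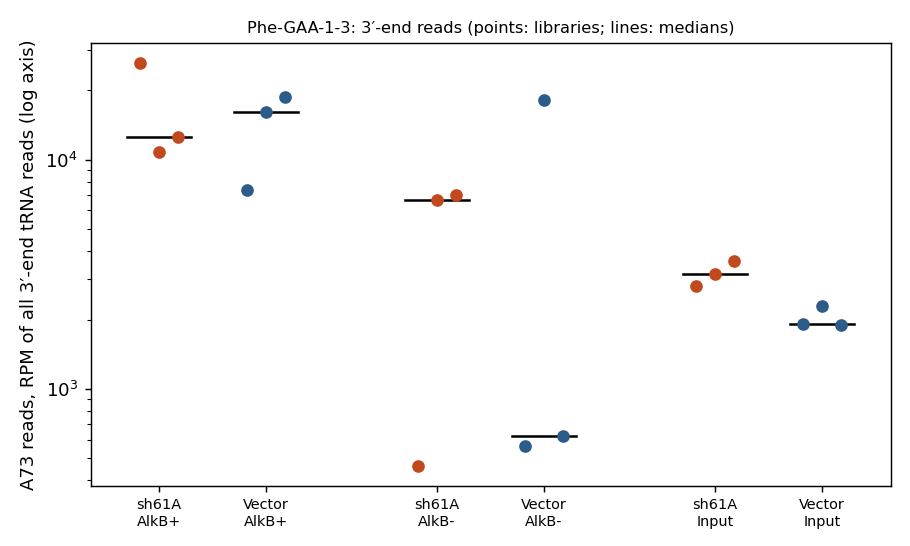
Reads at A73 of Phe-GAA-1-3 as a share of reads at tRNA 3′ ends, in RPM (vertical log axis), in the 18 libraries; points are libraries and lines medians. The 6 AlkB+ libraries (7374 to 26228) lie above the 6 input libraries (1903 to 3600.1), the sh61A input libraries lie above the Vector input libraries, and AlkB- libraries spread from 463 to 18107.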

How the data were processed

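The authors deposited 1 table for 18 libraries. Per the file headers it holds, per adenosine, the counts of reads that cover the site and of those with a mismatch, not normalised, and their quotient as a fraction; every deposited fraction equalled that quotient within 1e-09. The authors' difference column is the AlkB- minus the AlkB+ fraction and their fold column the ratio of both. The submitters' processing notes name SAMtools 1.3.1, Bowtie2 2.2.4, cutadapt 1.9.3 and the build hg38. How reads of alike tRNA genes were assigned and how sites were listed is not given in the sources used here. Lines with the same read and mismatch counts in all 18 libraries as an earlier line, 6 in number, were counted once, whatever their gene or position. A further 19 emptied lines are not analysed here. Phe-GAA-1-3 had 61 to 3952 reads per library at A58, which sets the precision. Wilson intervals (95%) and limits from a count of 0 (3 reads) cover counting error only, since reads carry no molecular identifiers.

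Mismatch counts were fitted per site with a quasi-binomial logistic model (F test, at least 20 reads in each library) in R 4.3.3. Sites with no mismatch were not tested, and in blocked fits pairs without mismatches were dropped with their degrees of freedom; this departs from the planned fit, which gave spurious p-values there. Read-through divided the reads at position 58 (15 nucleotides from the 3′ end) by the median of those at listed sites up to 8 nucleotides from that end, as log2 with a pseudocount of 0.5, tested with limma 3.58.1. Reads at the listed site nearest to the 3′ end were tested with edgeR 4.0.16 (TMM, quasi-likelihood) and, for display, scaled to RPM of all such reads, with DESeq2 1.42.0 as an alternative; standard errors were taken from the fold change and F. All fits used the whole table, two-sided, with Benjamini-Hochberg adjustment at 0.05. The quasi-binomial, limma read-through and edgeR fits without a block were tried on simulated data. The blocked fits and DESeq2 were not. The simulated mismatch and read-through counts had no spread between replicates beyond counting noise, unlike the libraries here. AlkB+ against AlkB- was blocked by replicate number, because the labels' protocols divide 1 immunoprecipitate. AlkB- against input was blocked likewise, with input of the same number taken to be from the same RNA. sh61A against Vector was not blocked. Deviations from the group means of libraries with the same number did not correlate above 0.1 throughout any pair of groups (lowest -0.26 for reads, -0.17 for mismatch rates).

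All Phe-GAA sites were named, with the 3 anticodons most alike and the neighbours in the order of Vector input. Members, lists and tests were chosen with earlier results of these data known. Alternatives were the read minimum, dispersion, tool, pseudocount, denominator, filter, block and leaving out each library.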

Additional observations from a re-analysis of the deposited data

How the results depend on the processing

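The direction of the Phe-GAA-1-3 read-through change in input held under each alternative tried, and no alternative brought it past the threshold. Its limma adjusted p was 0.269 with the replicate block. The higher share of Phe-GAA-1-3 among 3′-end reads in sh61A input kept its direction throughout. Its log2 change ran from 0.40 to 0.62 when single libraries were left out. The change passed with DESeq2, and with edgeR without a filter and with the replicate block (edgeR adjusted p = 0.0261). It did not pass without sh61A input replicate 2 or 3. Other changes of 3′-end reads had no stable direction: sh61A over Vector in AlkB- was 0.43 with the replicate block and -1.38 to 2.71 when single libraries were left out, and in AlkB+ it was -0.0300 with DESeq2 and -0.26 to 0.34. AlkB- over input was 1.76 with no replicate block and -1.45 to 1.36 in Vector, and 0.24 with no filter, 0.51 with no replicate block and -0.86 to 0.85 in sh61A. Leaving out single libraries, the A58 mismatch difference, sh61A minus Vector, ran from -0.433 to 0.362 percentage points in input, -0.503 to 0.0976 in AlkB- and -0.0379 to 0.244 in AlkB+, and from -0.00821 to 0.808 for AlkB+ minus AlkB- in Vector. At A73, sh61A minus Vector in AlkB- ran from -0.0148 to 0.0583, and AlkB+ minus AlkB- in sh61A from -0.0731 to 0.038. Without 1 pair, 6 of the AlkB+ minus AlkB- values at A58 and A73 are differences of means with no test. The log2 change in read-through ran from -0.0135 to 0.0092 for sh61A over Vector in AlkB-, -0.402 to 0.00265 in AlkB+, and -0.0118 to 0.00428 for AlkB+ over AlkB- in sh61A.

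Over all sites, the 2 mismatch calls in input were 1 with 50 reads as minimum, 0 with the dispersion held at 1 or more, 0 with the replicate block, and 0 to 8 when single libraries were left out; mismatch calls of sh61A against Vector then reached 0 to 1 in AlkB- and 0 to 2 in AlkB+. The 1 call of AlkB+ against AlkB- in sh61A was 0 with the dispersion at 1 or more, with limma, with no replicate block and when any pair was left out, and the 0 of AlkB- against input in Vector were 2 with no replicate block. The 16 read-through calls in input were 0 with the replicate block and 0 to 13 without single libraries. Read-through calls without single libraries were 0 to 4 for sh61A against Vector in AlkB-, 0 to 6 for AlkB+ against AlkB- in Vector, 5 to 19 for AlkB- against input in Vector and 0 to 24 in sh61A, where a minimum of 50 reads left 11. Calls in 3′-end reads of sh61A against Vector were 6 with DESeq2 and 0 to 1 without single libraries in AlkB-, and 0 with no filter, 0 with the replicate block and 0 to 3 in AlkB+. For AlkB- against input they were 0 with no filter and 0 to 20 in Vector, and 40 with DESeq2, 17 with no filter, 14 with no replicate block and 0 to 2 in sh61A. The causes were not tested. Depth limits Phe-GAA in input, with 75 to 100 reads per site and library, and in the AlkB- libraries with 61 to 69.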
